A study of Mus musculus with 6 samples.

Results

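The 9 genes described here handle glutamate after its release in the brain: the glutamate transporters Slc1a1, Slc1a2 and Slc1a3, the neutral amino acid exchanger Slc1a4, glutamine synthetase (Glul), the glutamine transporters Slc38a1, Slc38a2 and Slc38a3, and the cystine-glutamate exchanger Slc7a11. They were taken by name from a table of 55604 Ensembl identifiers, and all 9 were among the 11388 genes with enough reads to test. The RNA was from brain of C57BL/6 mice, with 3 libraries after intraperitoneal injection of 4-aminopyridine (4-AP), a potassium channel blocker used to induce status epilepticus, and 3 libraries without treatment; the labels give neither age, sex, time after injection nor brain region, and do not name a vehicle injection for the controls. The RNA had been digested with RNase R, which degrades linear RNA and spares circles, and the gene counts add up whatever circular and linear reads remained. Whether each library came from a separate animal is not given in the sources used here, so the spread between libraries may be technical.

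At glutamatergic synapses most released glutamate is cleared by astrocytes, mainly through GLT-1 (Slc1a2) and GLAST (Slc1a3). Inside the astrocyte glutamine synthetase joins glutamate to ammonia, the glutamine leaves through SNAT3 (Slc38a3), and neurons take it up through system A transporters such as SNAT1 (Slc38a1) and SNAT2 (Slc38a2) to make new glutamate. EAAC1 (Slc1a1) is the transporter of neurons, ASCT1 (Slc1a4) exchanges serine and other neutral amino acids in astrocytes and neurons, and xCT (Slc7a11) releases glutamate from astrocytes in exchange for cystine. Slc1a2, Slc1a3, Glul, Slc38a3 and Slc7a11 were therefore read as the 5 astrocytic genes and Slc1a1, Slc38a1 and Slc38a2 as the 3 neuronal ones, although Slc1a2 RNA and SNAT2 are also found in the other cell type.

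The 250 bases before the gene start, from RefSeq (GRCm38.p6, the assembly also called mm10), are shown for 1 gene that differed and for others that did not. Slc1a2 is the astrocytic transporter that differed most between the groups, and Slc1a3, Glul and Slc7a11 are astrocytic genes whose groups overlapped. Slc7a11 was included for its ratio to Slc1a2, which separated the groups, as did the ratios of Slc1a2 to Slc1a3 and Glul. RefSeq promoters were matched for 7 of the 9 genes. Slc1a2 lies on the plus strand (chr2:102706188-102706437), Slc1a3 on the minus strand (chr15:8710808-8711057), Glul on the plus strand (chr1:153899679-153899928) and Slc7a11 on the minus strand (chr3:50443614-50443863). Each sequence reads 5′ to 3′ along the gene, and capitals mark matches to any of the searched motifs.
Slc1a2: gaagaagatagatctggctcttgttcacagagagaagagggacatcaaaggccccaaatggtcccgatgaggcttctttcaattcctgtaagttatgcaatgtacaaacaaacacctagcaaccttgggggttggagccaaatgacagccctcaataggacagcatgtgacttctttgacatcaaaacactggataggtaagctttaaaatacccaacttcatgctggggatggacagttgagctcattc
Slc1a3: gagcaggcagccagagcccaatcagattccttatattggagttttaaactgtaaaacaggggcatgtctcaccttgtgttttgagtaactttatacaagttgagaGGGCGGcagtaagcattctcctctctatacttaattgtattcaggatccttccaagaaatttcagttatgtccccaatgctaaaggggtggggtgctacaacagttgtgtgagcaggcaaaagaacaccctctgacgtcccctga
Glul: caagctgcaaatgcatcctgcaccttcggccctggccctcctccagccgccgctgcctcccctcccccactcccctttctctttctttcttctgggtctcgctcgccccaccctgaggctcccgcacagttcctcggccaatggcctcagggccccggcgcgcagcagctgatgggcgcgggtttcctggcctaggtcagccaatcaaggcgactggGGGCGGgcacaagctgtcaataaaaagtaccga
Slc7a11: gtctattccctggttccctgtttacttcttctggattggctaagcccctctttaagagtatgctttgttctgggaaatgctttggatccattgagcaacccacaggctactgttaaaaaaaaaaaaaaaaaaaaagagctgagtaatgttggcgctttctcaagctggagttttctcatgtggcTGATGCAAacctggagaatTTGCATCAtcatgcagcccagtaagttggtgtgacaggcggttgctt

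The motifs searched on both strands were TGANTCA (AP-1), TGACGTCA (cyclic AMP response element), GGGCGG (GC box), TGATGNAA (amino acid response element), TGACNNNGC (antioxidant response element) and the kappa-B decamer with 2 bases left free. The Slc7a11 window held TGATGNAA at 2 places, 66 to 59 bases before the start on the gene's strand and 47 to 40 bases before it on the other strand; 3.53% of 27025 promoters of the same length held this motif at least once. The GC box occurred once in the Slc1a3 window and once in that of Glul, and at least once in 32.9% of all promoters. None of the 6 motifs was found in the Slc1a2 window, which precedes a RefSeq start lying 47779 bases inside the gene as GENCODE draws it, so that other Slc1a2 start sites are not covered. The Slc1a2 and Slc1a3 windows were both 44.8% GC, that of Glul 64.8% and that of Slc7a11 43.2%, against a median of 52.0% over all promoters.

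Total counts ran from 1507882 to 2721287 in the 4-AP libraries and from 2355610 to 3409055 in the controls, and 3 reads corresponded to between 0.778 and 2.19 CPM (read count divided by the scaled library size, times 1000000). The single gene Lars2 took between 12.4% and 21.4% of all reads in the 4-AP libraries and between 3.82% and 12.1% in the controls, without overlap between the groups. All 20 astrocyte markers and all 15 pan-neuronal markers listed for this comparison had enough reads to test, and none was at 0. Every member had at least 47 reads in every library.

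Set per kilobase of exonic sequence, which takes account of gene length, glutamine synthetase had the highest level of the 9. After RNase R digestion the level of a gene also depends on how much of its RNA survived. The order therefore describes the remaining reads and not the abundance of messenger RNA. Glul stood at 587 ± 22.5 CPM per kilobase in control brain and 611 ± 95.7 in 4-AP brain (SD, n = 3 each). Slc1a2 followed at 133 ± 3.08 in controls and 86.2 ± 7.19 after 4-AP, and Slc1a3 at 27.6 ± 4.06 and 29.1 ± 0.93 CPM per kilobase. These 3 astrocytic genes kept their places in both groups, and their control ranges did not touch. Slc1a4 (13.8 ± 1.35 in controls), Slc38a3 (12.1 ± 3.44), Slc38a1 (8.25 ± 1.05) and Slc38a2 (6.59 ± 0.86) formed a descending series in which the control range of each gene overlapped that of the next. Slc1a1 (4.40 ± 0.12) and Slc7a11 (4.10 ± 0.91) were lowest and overlapped each other. With the longest annotated transcript as the length, Slc1a4 moved from the 4th to the 6th place and Slc1a1 passed Slc38a2, whereas Glul, Slc1a2 and Slc1a3 stayed on top.

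Within the 9 genes, reads were thus concentrated in a pair of astrocytic ones: Slc1a2 and Glul together held between 81.9% and 85.3% of the members' reads in the 4-AP libraries and between 84.7% and 85.9% in the controls.

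**Figure D1:**
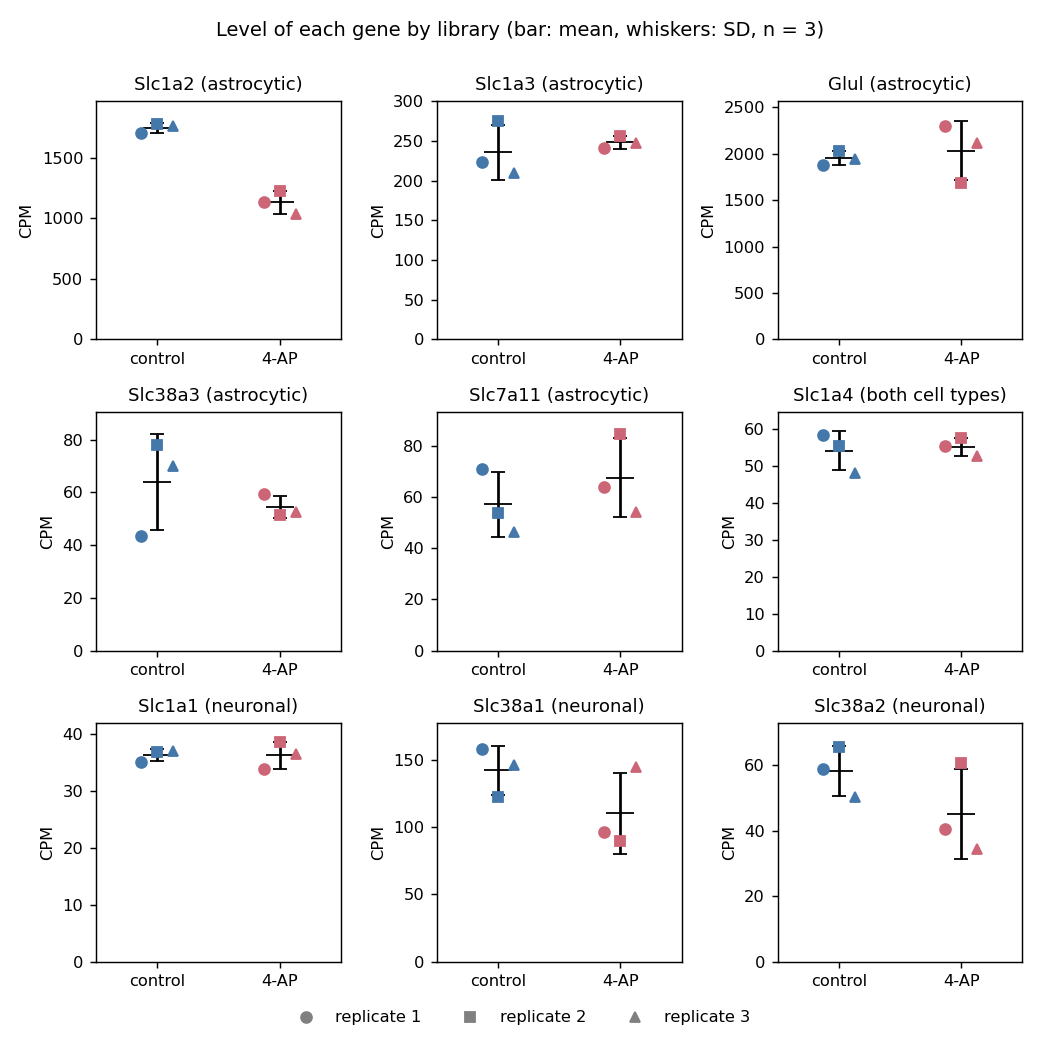
Level of each of the 9 genes in CPM (linear axes from 0) in the 3 control and 3 4-AP libraries; each point is 1 library, marker shape gives its replicate number, the bar is the mean and whiskers the SD. In the Slc1a2 panel all 4-AP points (1035 to 1223 CPM) lie below all control points (1703 to 1782 CPM); in the other 8 panels the groups overlap.

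Slc1a2 was the member that differed most between the groups. It encodes GLT-1, the transporter that carries out most glutamate uptake in the forebrain, and lies on chromosome 2 (102658659 to 102790784, plus strand, mm10) with 12 annotated transcripts. It was at 1138, 1223 and 1035 CPM in 4-AP libraries 1, 2 and 3, and at 1703, 1782 and 1758 CPM in the control libraries 1, 2 and 3. Every 4-AP library was therefore lower than every control, and the controls lay close together (1748 ± 40.4 CPM, SD, n = 3) beside the 4-AP libraries (1132 ± 94.4 CPM). The log2 fold change was -0.63 (SE 0.14), a level lower by 35.2% in the fitted comparison. In digested RNA from bulk tissue, fewer cells of a type, less RNA per cell and less RNA surviving digestion cannot be told apart. The members and this contrast were chosen with earlier results of these data known, so that these differences are given as a description and not as a test.

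Slc1a2 was the 1 member of 9 that passed the threshold of edgeR's quasi-likelihood fit over all genes (adjusted p under 0.05), in the direction in which 0.509% of all tested genes passed; no member passed in the other direction, in which 0.334% of all tested genes did. It was also the 1 member whose groups did not overlap, as was the case, in this direction, for 10.4% of all tested genes; 8.36% were apart in the other direction. It lost its call without 4-AP replicate 1 (log2 fold change -0.63), 4-AP replicate 3 (-0.57), control replicate 2 (-0.59) or control replicate 3 (-0.62), and kept it without 4-AP replicate 2 (-0.66) or control replicate 1 (-0.64). Its opposite-strand neighbour Gm13872 covers 1.44% of its exonic bases and had 38 reads over the 6 libraries, so that reads of that gene could alter little of the Slc1a2 count.

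**Figure D2:**
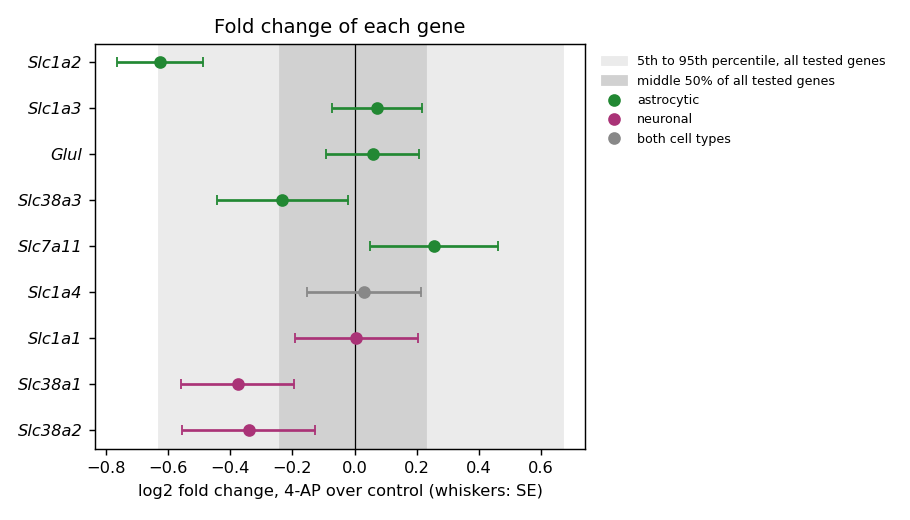
Log2 fold change of each gene, 4-AP over control, with its SE, coloured by the cell type in which it is mainly found; grey bands give the spread of fold changes over all 11388 tested genes. Slc1a2 lies at the lower edge of the outer band (-0.63), and the other 8 genes lie between -0.38 and 0.25.

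In the other astrocytic genes of uptake and glutamine synthesis the groups overlapped. Slc1a3, which encodes GLAST, the transporter of Bergmann glia and of astrocytes more widely (chromosome 15, 8634124 to 8710764, minus strand), was at 241, 257 and 247 CPM after 4-AP and at 223, 275 and 209 CPM in controls. The 4-AP libraries lay inside the range of the controls, with a log2 fold change of 0.07 (SE 0.15). Glul (chromosome 1, 153899944 to 153909723, plus strand) was at 2299, 1679 and 2112 CPM after 4-AP and at 1875, 2025 and 1948 CPM in controls. Here the 4-AP libraries scattered to both sides of the controls, replicate 2 below and replicates 1 and 3 above all of them, and the log2 fold change was 0.06 (SE 0.15).

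Slc38a3, the glutamine exporter of astrocytes (chromosome 9, 107650634 to 107669530, minus strand), was at 59.3, 51.5 and 52.6 CPM after 4-AP and at 43.4, 78.1 and 70.1 CPM in controls. The 4-AP values lay between the low control replicate 1 and the other controls, and the log2 fold change was -0.23 (SE 0.21), -0.03 without control replicate 2 and -0.44 without control replicate 1. Slc7a11 (chromosome 3, 49892526 to 50443614, minus strand), the exchanger whose promoter is shown above, was at 63.9, 84.3 and 54.1 CPM after 4-AP and at 71.0, 53.7 and 46.4 CPM in controls. Its groups overlapped, with a log2 fold change of 0.25 (SE 0.21) that was 0.07 without 4-AP replicate 2 and 0.45 without control replicate 1. It was positive in all 15 alternative settings, and the test was passed in none of them.

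None of the neuronal members separated the groups. Slc1a1, the EAAC1 gene (chromosome 19, 28835049 to 28913960, plus strand), was at 33.9, 38.6 and 36.5 CPM after 4-AP and at 35.2, 36.8 and 37.0 CPM in controls. The groups were nearly superimposed, with a log2 fold change of 0.006 (SE 0.20). Its value is uncertain because the opposite-strand gene 4430402I18Rik shares 31.9% of its exonic bases and the strand setting of the counting is not given in the sources used here; that gene had 74 reads over the 6 libraries.

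Slc38a1 and Slc38a2 lie beside each other on the minus strand of chromosome 15 (96571418 to 96642913 for the former, 96687392 to 96699730 for the latter). Slc38a1 was at 96.5, 89.7 and 145 CPM after 4-AP and at 158, 122 and 146 CPM in controls. The first pair of 4-AP libraries lay below all controls and 4-AP replicate 3 among them; the log2 fold change was -0.38 (SE 0.18), and -0.61 without 4-AP replicate 3. Slc38a2, which encodes the amino acid-responsive SNAT2, was at 40.4, 60.7 and 34.4 CPM after 4-AP and at 58.8, 65.6 and 50.4 CPM in controls. In this gene it was 4-AP replicate 2 that lay among the controls, and the log2 fold change of -0.34 (SE 0.21) became -0.62 without it. The library that stood with the controls was thus a different one in the pair of neighbours, and the ratio of Slc38a1 to Slc38a2 reads ran from 1.48 in 4-AP replicate 2 to 4.21 in 4-AP replicate 3.

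Slc1a4, found in both cell types (chromosome 11, 20302180 to 20332713, minus strand), was at 55.4, 57.5 and 52.6 CPM after 4-AP and at 58.5, 55.5 and 48.2 CPM in controls. The 4-AP libraries lay within the control range, and the log2 fold change was 0.03 (SE 0.18).

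Over the 9 genes the median log2 fold change was 0.006, beside -0.008 over all tested genes, and 4 of the 9 lay below 0, beside 51.0% of all genes. As a set the members therefore lay where the tested genes as a whole lay. The 5 astrocytic genes had a median of 0.06 and ranged from -0.63 to 0.25. The 3 neuronal genes had a median of -0.34 and ranged from -0.38 to 0.006, and all 3 members of the Slc38 family lay below 0.

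Averaged on the log2 CPM scale, the 3 neuronal genes were at 5.68, 5.90 and 5.84 after 4-AP and at 6.12, 6.07 and 6.03 in the controls. All 4-AP libraries were lower than all controls in this average, while no neuronal gene separated the groups by itself. Of single tested genes 10.4% lay apart in this direction, and no such share was computed for averages of 3 genes. The sums of the pan-neuronal markers, given below, lay apart in the same way. The 5 astrocytic genes averaged 8.23, 8.22 and 8.10 after 4-AP and 8.20, 8.39 and 8.22 in controls, and overlapped. The astrocytic minus neuronal difference was 2.37 ± 0.15 after 4-AP and 2.20 ± 0.12 in controls (log2 units, SD, n = 3 each), with overlapping groups. Without both libraries numbered 1, a setting added after seeing the data, the astrocytic and neuronal genes differed by 0.0081 in mean log2 fold change, against 0.14 with all libraries.

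Ratios of reads within a library, which no scaling factor can alter, set Slc1a2 against 4 of the other members directly. For each read of Slc1a3 there were 4.72, 4.76 and 4.19 reads of Slc1a2 after 4-AP and 7.62, 6.47 and 8.40 without it. Against Slc1a1 the ratio was 33.6, 31.7 and 28.3 after 4-AP and 48.4, 48.4 and 47.5 in controls, lower in each 4-AP library than in any control. Against Glul the ratio was 0.495, 0.729 and 0.490 after 4-AP and 0.908, 0.880 and 0.903 in controls. Slc7a11, the other way round, had 0.0561, 0.0689 and 0.0523 reads for each read of Slc1a2 after 4-AP and 0.0417, 0.0301 and 0.0264 in controls. These 4 ratios with Slc1a2 separated the groups. The ratio of Glul to Slc1a3 (8.20 ± 1.53 after 4-AP and 8.35 ± 0.97 in controls, SD, n = 3 each) and that of Slc1a3 to Slc1a1 (6.84 ± 0.24 and 6.49 ± 0.92) did not. The 4 ratios with Slc1a2 reuse the Slc1a2 counts, which separated the groups by themselves, so they add no separate support. Nor did Slc1a2 lie apart against every member. By their read counts, its ratios to Slc38a1, Slc38a2 and Slc38a3 overlapped between the groups, while its ratio to Slc1a4 did not.

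**Figure D3:**
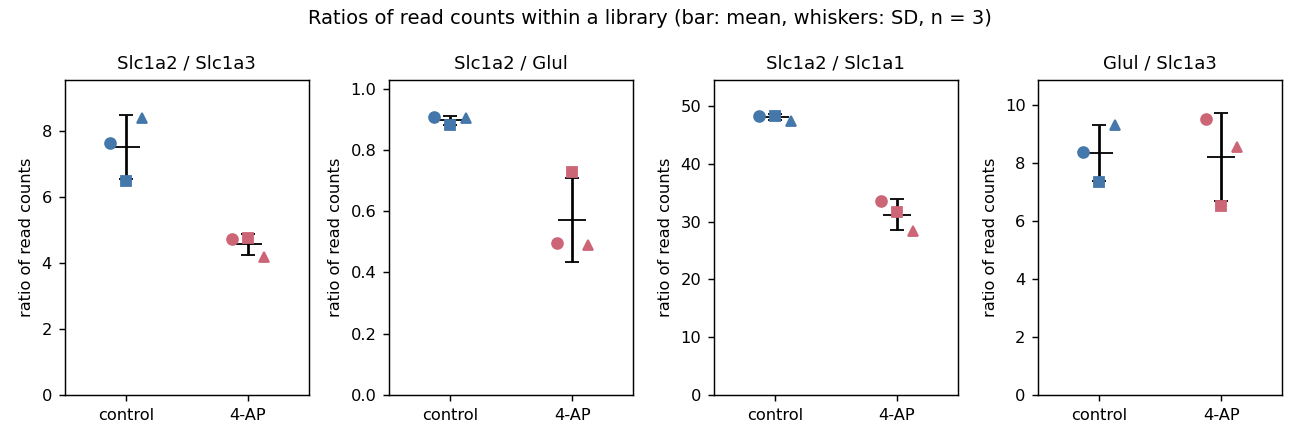
Ratio of read counts of 2 genes in the same library, by group; each point is 1 library, the bar is the mean and whiskers the SD, and the axes start at 0. The 3 ratios with Slc1a2 on top are lower in every 4-AP library than in every control, while the ratio of Glul to Slc1a3 overlaps.

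Within the Slc1 family the groups lay apart in measures that hold the same Slc1a2 counts. Slc1a2 supplied 77.5%, 77.6% and 75.5% of the reads of the 4 Slc1 family members after 4-AP and 84.3%, 82.9% and 85.6% without it. The summed level of these 4 genes was 1472 ± 103 CPM after 4-AP and 2074 ± 67.2 CPM in controls (SD, n = 3 each), without overlap. For all 9 genes the sum was 3779 ± 243 CPM against 4344 ± 136, again without overlap. Without Slc1a2 the other 8 genes summed to 2647 ± 295 CPM after 4-AP and 2597 ± 101 CPM in controls, with overlap.

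The summed level of astrocyte markers overlapped between the groups. None of the 20 passed edgeR's test over all genes, 7 lay below 0, and their median log2 fold change was 0.15; their summed level ran from 2694 to 2916 CPM after 4-AP and from 2556 to 3145 CPM in controls. In 1 marker, Aldh1l1, every 4-AP library was lower than every control (log2 -0.28), and in 4 every one was higher, namely Slc4a4 (0.27), Mlc1 (0.29), Ntsr2 (0.37) and Slc7a10 (0.53), beside 10.4% and 8.36% of all tested genes; these were named after their values were seen. The ion transport genes Atp1b2 (-0.42) and Kcnj10 (-0.38), which work beside glutamate uptake and were also picked after their values were seen, did not pass. They had the lowest fold changes of the 20 markers, and their groups overlapped. With 1 library left out, the fold change came as near to 0 as -0.10 in each of them.

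Markers of glutamatergic neurons did move in the same direction as Slc1a2. Of 10 such markers 10 lay below 0 and 3 fell (Slc17a7, Neurod2 and Nrgn), with a median log2 fold change of -0.79, beside 51.0% below 0 and 0.509% called lower over all tested genes. Of the 6 fits that left out 1 library, Neurod2 passed in 1, Nrgn in 2 and Slc17a7 in 3. The summed level of the 10 markers ran from 1319 to 1913 CPM after 4-AP and from 2445 to 2516 CPM in controls. The 15 pan-neuronal markers summed to between 3764 and 4118 CPM after 4-AP and between 4293 and 4701 CPM in controls, with 13 below 0 and none passing. Of the 12 hypothalamic and thalamic markers, 7 were tested and 3 rose (the hormone genes Oxt, Avp and Trh), beside 0.334% of all tested genes. Oxt had 8 to 17 reads in the 4-AP libraries and 0 in every control. In the other tested markers of this list the groups overlapped, and Pomc was at -0.60. The sum of the 12 markers ran from 101 to 210 CPM after 4-AP and from 22.8 to 139 CPM in controls. The 8 cerebellar markers, of which Gabra6 was at 0 in every library and 4 were tested, summed to between 76.5 and 138 CPM after 4-AP and between 58.5 and 84.2 CPM in controls. No marker of GABAergic neurons, oligodendrocytes and their precursors, microglia, endothelium or cerebellum passed. The part of these shifts in neuronal and regional markers, and of the Lars2 share, in the Slc1a2 result was not tested.

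**Figure D4:**
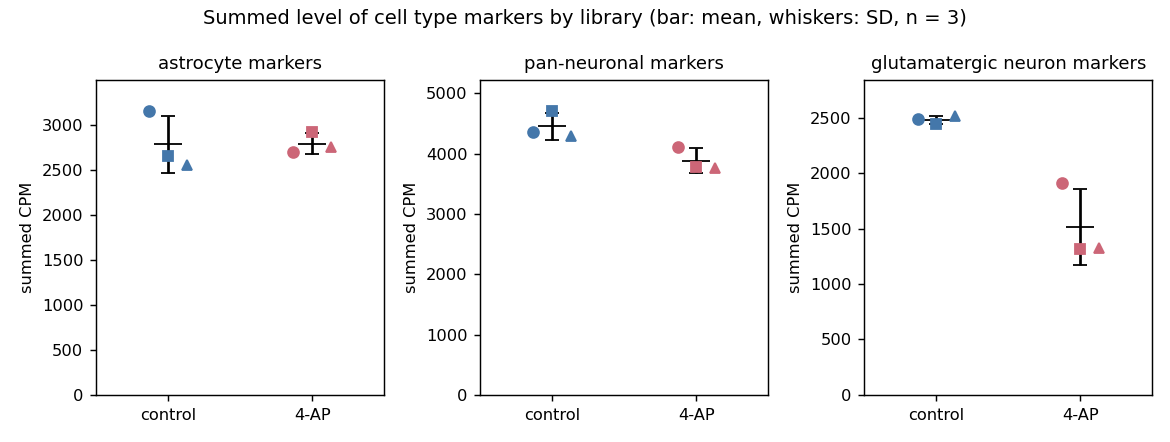
Summed CPM of the astrocyte, pan-neuronal and glutamatergic neuron marker lists in each library (points), with mean and SD, on axes that start at 0. The astrocyte sums overlap between groups, while the pan-neuronal and glutamatergic sums of the 4-AP libraries lie below those of all controls.

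The genes whose profiles over the 6 libraries were most like that of Slc1a2 were sought among 8436 genes with a mean of at least 10 CPM, by the root mean square difference of centred log2 CPM. Of the 5 nearest, 4 were Strn4 (0.0595), Lrrc24 (0.062), Adcy9 (0.0705) and Fam168a (0.0714), where the median gene was at 0.391. No member was among these 5; of the members the nearest to Slc1a2 was Slc38a2, at 0.237. The profile of Slc1a1 was nearest to those of Rnf220 (0.0319), Tmem234 (0.0341), Urgcp (0.0359), Rgl1 (0.0371) and Trak2 (0.0388), with log2 fold changes between -0.03 and 0.04. Among the members, Slc1a3 and Slc1a4 had the most similar profiles (0.115), closely followed by Slc1a1 and Slc1a4 (0.116).

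Around these 9 genes stand others that load, make, break down or exchange glutamate and glutamine. Of 62 such genes, chosen by function, 52 were tested and 1 fell: Slc17a7, the vesicular transporter VGLUT1 of cortical glutamatergic neurons (log2 fold change -0.79, SE 0.15, with an adjusted p of 0.0142 from edgeR). That is 1 of 52 beside 0.509% of all genes, and none rose. Slc17a7 is also 1 of the glutamatergic neuron markers given above, so its call is the same result and not a further one. Slc17a7 lost its call without 4-AP replicate 3 (-0.64), control replicate 2 (-0.78) or control replicate 3 (-0.76). The vesicular transporters of other neurons, Slc17a6 (1.05, SE 0.82) and Slc17a8 (0.75, SE 0.61), did not pass; Slc17a6 was higher by 2.31 without control replicate 1 (edgeR, adjusted p = 0.00163). The median of the 52 genes was -0.02.

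No enzyme of glutamate metabolism passed among 12 tested. Glutamate dehydrogenase was at 158 CPM after 4-AP and 133 in controls (Glud1; 0.25, SE 0.15). The alanine aminotransferase gene Gpt was at -0.75 (SE 0.36) and the proline and ornithine synthesis gene Aldh18a1 at 0.53 (SE 0.22). The groups did not overlap in Gpt, where 4-AP was lower, or in Aldh18a1, where it was higher, but they overlapped in Glud1. Of the 52 tested pathway genes 6 lay apart lower and 4 higher, beside 10.4% and 8.36% of all tested genes. The mitochondrial carriers stayed near 0, from -0.07 for the glutamate carrier Slc25a22 to 0.07 for Slc25a11.

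Among the other transporters, none passed. The Purkinje cell transporter Slc1a6 averaged 7.81 CPM after 4-AP and 4.88 in controls (0.64, SE 0.44), and its relatives Slc1a5 and Slc1a7 had too few reads to test. In the Slc38 family Slc38a10 was at 0.29 (SE 0.15), Slc38a9 at 0.16 and Slc38a7 at -0.07, beside the negative values of the 3 members of that family. The synaptic vesicle amino acid transporter Slc6a17 was at -0.46 (SE 0.14, with an adjusted p of 0.119 from edgeR), Slc7a8 at -0.30, Slc6a15 at 0.20 and Slc7a6 at 0.06. Slc3a2, the heavy chain that carries xCT to the membrane, was level at 54.6 and 55.4 CPM; it was named after its value was seen, as the partner of Slc7a11.

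In the branch that turns glutamate into GABA, the GABA transaminase gene Abat was the nearest to a call (0.46, SE 0.15, with an adjusted p of 0.136 from edgeR), with 293 CPM after 4-AP and 214 in controls. The synthetic enzymes Gad1 (-0.05) and Gad2 (0.27) did not pass. The astrocytic GABA transporter Slc6a11, outside the naming rule, was at 0.46 (SE 0.48), and at 1.14 without control replicate 1, where it passed (edgeR, adjusted p = 0.00237).

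Of genes that bind or regulate the transporters, Arhgef11, which in the rat binds the Purkinje cell glutamate transporter, was at -0.40 (SE 0.17). Nfkb1, which encodes a subunit of NF-kappa-B, was at 0.56 (SE 0.16, with an adjusted p of 0.0981 from edgeR) and passed without 4-AP replicate 2 (0.72), while Rela, its usual partner, was at 0.09. In the glutathione branch that cystine from xCT feeds, 7 of 7 genes were tested and none passed: Gclm was at 0.28, Gss at 0.19, Ggt7 at -0.29 and the stress sensor Keap1 at -0.12.

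**Figure D5:**
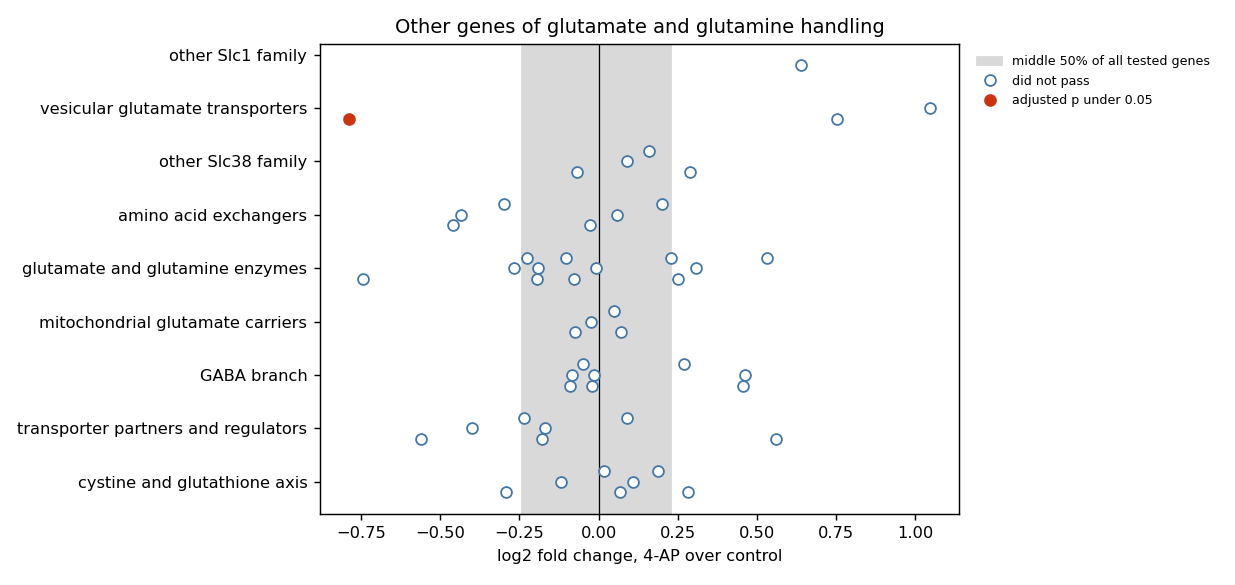
Log2 fold change, 4-AP over control, of the 52 tested genes around the glutamate-glutamine cycle (points, 1 gene each), by functional group, with the central band of all tested genes in grey. The filled point is Slc17a7 (-0.79); open points did not pass an adjusted p under 0.05.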

How the data were processed

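Whole-number read counts per gene were deposited by the authors, 1 table per library. The submitters' processing notes name STAR 2.5.3a, featureCounts and the mm10 build; RNase R digestion came first, per the labels' protocols. Which annotation, strand option and rule for multi-mapping reads were used is not given in the sources used here. Of 55604 identifiers, 54723 matched GENCODE M21 without their version; the rest held 0.02% of counts.

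Genes were kept by filterByExpr (minimum count 10, total 15), scaled by TMM (trimmed mean of M-values) and fitted in edgeR 4.0.16 (robust quasi-likelihood, group as the only term; R 4.3.3), with Benjamini-Hochberg adjustment over 11388 genes and a threshold of 0.05. Standard errors come from the fold change and its F. Log2 CPM used a prior count of 1. Exonic length is the union of annotated exons. The procedure was tested on simulated counts. The floor of 3 reads covers counting error only, while the standard errors also hold the spread between libraries. No library pair agreed within sampling noise (lowest chi-square per degree of freedom 7.79).

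The members, lists and tests were chosen with earlier results of these data known. Named were all members, the called genes of each pathway list with up to 2 further genes per direction by smallest p, and the 5 profiles nearest to Slc1a2 and Slc1a1; exceptions are marked, and some named genes are not reported here. Pathway lists and marker lists were set by function. Alternatives were 3 scalings, DESeq2 1.42.0, limma-voom 3.58.1, no filter, exclusion of mitochondrial, ribosomal and structured RNA genes, a replicate block and each library left out; leaving out both libraries numbered 1 was added after seeing the data.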

Additional observations from a re-analysis of the deposited data

How the results depend on the processing

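Slc1a2 was lower in 4-AP brain under all 15 alternatives (log2 fold change -0.83 to -0.57) and was called in 10 of them. Slc38a1, Slc38a2 and Slc38a3 were below 0 and Slc7a11 above 0 in all 15, none called. Glul was below 0 in 3, Slc1a1 in 4, Slc1a3 in 2 and Slc1a4 in 3. Total-count scaling moved the median of all genes to -0.22 and that of the 9 members to -0.20. When 1 library was left out, the number of called genes ran from 16 to 105 higher and from 10 to 54 lower, of called members from 0 to 1, and of called pathway genes from 0 to 1 lower and 0 to 2 higher. Over all genes 38 were higher and 58 lower; the counts were 112 and 153 with a replicate block, 80 and 99 with DESeq2 and 131 and 197 without a filter, and 293 were lower with total counts. The pathway genes called lower numbered 2 with the block, DESeq2, limma-voom or no filter and 3 with total counts, and 1, Nfkb1 (0.55), was higher with the block. Without both libraries numbered 1, 28 genes and 0 members were lower and 2 pathway genes higher; the median of the members was -0.070 and the astrocytic minus neuronal difference 0.0081. The cause of these shifts was not tested. Deviations of libraries with the same number correlated at -0.0009, 0.104 and 0.0236, and those with different numbers between -0.0935 and 0.0579. These values do not settle whether the numbers pair the samples. The labels do not say what equal numbers share, so the main fit had no block. The replicate block left Slc1a2 at -0.63. Slc1a1, with 50 to 142 reads a library, and Slc38a2, with 47 to 253, carry more counting error than Slc1a2, with 1416 to 6870.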
